A study of Homo sapiens with 9 samples.

Results

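A set of 50 interferon-stimulated effector genes that lie outside the OAS, IFIT, IFITM and MHC families was followed in HMC3 cells under 3 conditions. HMC3 is a human microglial line immortalized with the SV40 large T antigen, which per the paper disrupts the p53 and Rb pathways. Every library came from this line, and no further genetic change is named for any of them. The members were taken by gene symbol from the 61544 genes listed with counts, all 50 symbols were found, and 48 passed the expression filter applied to the whole table. The VEH libraries came from cells given only the solvent DMSO, the SLO ½ libraries from cells given 5 µM SBI-0206965, 0.5 µM O-151 and 0.5 µM Lopinavir, and the SLO libraries from cells given 10 µM, 1 µM and 1 µM of the same compounds. SBI-0206965 inhibits the autophagy kinase ULK1, O-151 the repair glycosylase OGG1, and Lopinavir blocks Lamin A maturation. Each group had 3 libraries of polyadenylated RNA after 6 consecutive days of treatment, and the labels do not say whether replicates were separate cultures, so p-values measure only the spread between these libraries. The compounds were given only together, so the share of each in any change cannot be told apart. The comparisons ask how this set of genes responded to the cocktail, and whether the response differed between the doses.

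Interferons bind receptors at the cell surface and switch on JAK kinases, which phosphorylate transcription factors of the STAT family. Their complexes bind interferon-stimulated response elements (ISRE) or gamma-activated sites (GAS) near the start of target genes. The effectors read from these genes act on virus entry, on viral RNA and nucleotide pools, on assembly and budding, and on the pathway itself, and in microglia they mark the interferon-responsive states described with ageing and infection.

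Most members carried letters of the interferon response element close to their start. Promoters of 300 bases, from 250 before to 50 after the annotated start, were read for 40 of the 50 members from RefSeq (GRCh38.p14), and both strands were searched for the core letters of an ISRE, which are GAAA, any 2 bases and GAAA again, and for those of a GAS, which are TTC, any 3 bases and GAA. The ISRE letters occurred in 27 of these 40 members (67.5%), against 4.38% of the 27305 genes in the same table. GAS letters were found in 10 of the 40 members, against 9.38% of genes, and 4 of the 11 GAS matches overlapped an ISRE match. Of the 40 members, 10 held at least 2 ISRE matches in 1 promoter, 17 held 1 and 13 held none. The stretches printed here run from base -160 to base -1 before the start, 5′ to 3′ on the gene's strand, with ISRE letters of either strand in capitals. The members APOL1, APOL6, GBP2, MX2, PARP10, PML, TRIM22, UBA7, USP18 and ZNFX1 had no entry. The printed stretches are shown because ISG15, IFI6, BST2 and HERC5 hold several matches, GBP1 and TRIM14 hold 1 each but went opposite ways at the full dose, and SAMHD1 rose with none.
ISG15 (chr1:1013337-1013496, plus strand): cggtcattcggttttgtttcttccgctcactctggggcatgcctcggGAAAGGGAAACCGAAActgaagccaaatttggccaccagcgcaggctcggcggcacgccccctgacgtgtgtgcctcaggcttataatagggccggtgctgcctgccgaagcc
IFI6 (chr1:27672193-27672352, minus strand): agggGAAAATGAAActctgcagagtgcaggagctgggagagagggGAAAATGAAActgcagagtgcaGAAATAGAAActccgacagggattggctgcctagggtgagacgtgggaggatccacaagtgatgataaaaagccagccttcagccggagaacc
BST2 (chr19:17405631-17405790, minus strand): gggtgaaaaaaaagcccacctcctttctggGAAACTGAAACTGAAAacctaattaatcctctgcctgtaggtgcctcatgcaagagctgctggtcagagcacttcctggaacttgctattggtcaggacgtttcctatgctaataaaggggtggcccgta
HERC5 (chr4:88456959-88457118, plus strand): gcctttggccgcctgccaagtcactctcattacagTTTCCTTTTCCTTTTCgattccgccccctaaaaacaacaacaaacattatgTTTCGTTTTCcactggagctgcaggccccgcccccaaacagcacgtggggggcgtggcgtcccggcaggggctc
GBP1 (chr1:89065209-89065368, minus strand): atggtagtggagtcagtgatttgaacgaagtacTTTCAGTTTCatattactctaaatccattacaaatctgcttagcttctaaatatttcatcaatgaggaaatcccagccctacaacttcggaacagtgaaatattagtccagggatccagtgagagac
TRIM14 (chr9:98119223-98119382, minus strand): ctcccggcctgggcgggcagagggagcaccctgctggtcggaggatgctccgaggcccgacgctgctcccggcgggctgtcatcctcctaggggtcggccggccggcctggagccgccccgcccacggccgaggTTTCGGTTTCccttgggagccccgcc
SAMHD1 (chr20:36951709-36951868, minus strand): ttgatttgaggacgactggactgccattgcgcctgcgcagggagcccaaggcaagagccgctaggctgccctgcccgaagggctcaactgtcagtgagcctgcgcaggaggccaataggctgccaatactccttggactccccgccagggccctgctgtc

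In ISG15 and BST2 the matches overlap and form 1 run, whereas those of IFI6 stand apart at 3 places. The match in the PARP9 promoter and that in the DTX3L promoter are the same 10 bases (chr3:122564332-122564341), since these genes start side by side on opposite strands. Over the tested members, the median log2 fold change in SLO ½ against VEH was 2.605 for the 9 with at least 2 matches, 1.17 for the 17 with 1 match and 1.085 for the 12 with none. The ranges overlapped widely, from 0.59 to 4.30, from 0.46 to 3.69 and from -0.14 to 3.55, so the number of matches did not separate the members. A match is a description of letters, and binding of a factor was not measured.

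**Figure D1:**
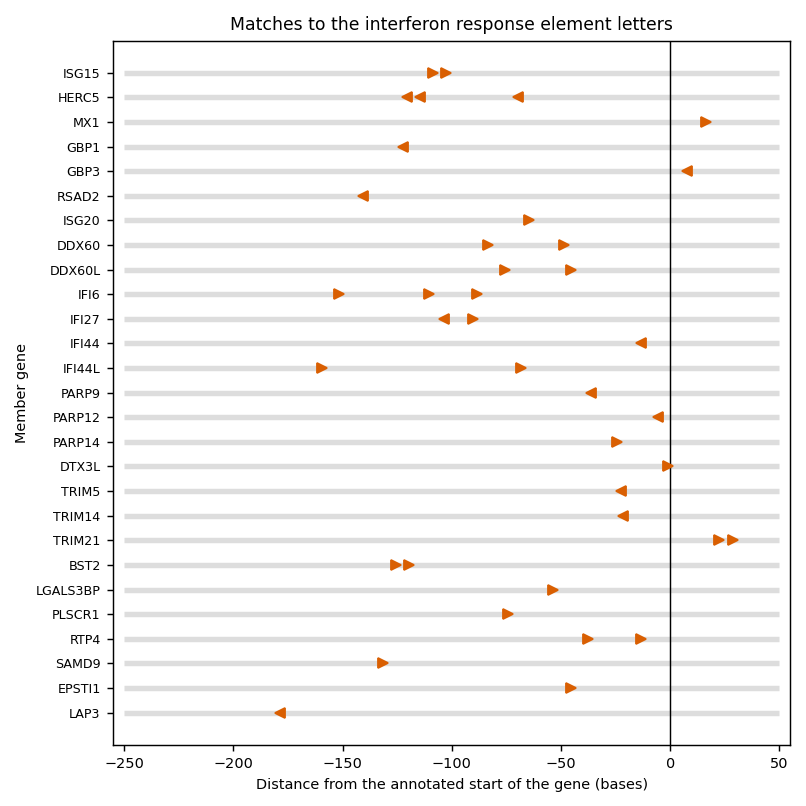
Matches to the ISRE letters in the promoters of the 27 members that hold one, with distance from the annotated start in bases on the x axis and 1 gene per line (first listed promoter of each gene). Right-pointing triangles mark matches on the gene's strand and left-pointing triangles matches on the other strand; most matches lie before the start, and MX1, GBP3 and TRIM21 hold theirs just after it.

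The libraries held 18177439 to 24249174 reads, of which 14834295 to 19674841 were assigned to genes. Replicates were not copies of each other, as their counts differed by 1.77 to 4.17 times the sampling variance. Of 12 microglial and macrophage markers only CSF1R and TREM2 passed the filter, P2RY12, TYROBP and C1QA had 0 counts in all 9 libraries, and COL1A1, a fibroblast collagen, reached 2165 to 3374 CPM (read counts scaled by library size and TMM). The fibroblast genes COL3A1, LUM and DCN, in contrast, had at most 12 counts in a library. The defining microglial markers were thus at or near 0. The summed level of the microglial list was 1.46 to 2.52 TPM (scaled also for gene length) in VEH, 4.11 to 6.31 TPM in SLO ½ and 4.80 to 5.08 TPM in SLO. That of 8 fibroblast and pericyte markers, most of it COL1A1, was 1827 to 2035, 2215 to 2290 and 2474 to 2586 TPM, that of 5 neuronal markers 2.38 to 2.60, 4.52 to 5.45 and 6.74 to 7.22 TPM, that of 5 astrocyte markers 3.80 to 5.20, 7.51 to 7.56 and 8.81 to 9.33 TPM, and that of 5 lymphocyte markers at most 0.119 TPM. Their part in the results was not tested. As RNA was taken from whole cultures, fewer responding cells and less RNA per cell cannot be told apart.

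Baseline levels of the members spanned a wide range. In VEH the mean level was under 1 TPM for 8 of the 48 tested members, 1 to 10 TPM for 15, 10 to 50 TPM for 19 and over 50 TPM for 6. The most abundant member was LGALS3BP, a secreted glycoprotein that binds galectins, at 228 ± 17.1 TPM (SD, n = 3), followed by ZNFX1 at 102 ± 2.51 TPM and LAP3 at 98.0 ± 4.70 TPM. The level of ZNFX1 and that of LAP3 lay within their spread of each other. In SLO ½ LGALS3BP stood at 486 ± 22.1 TPM and IFI6 at 453 ± 36.4 TPM, again within their spread, ahead of ZNFX1 (182 ± 9.31 TPM) and ISG15 (162 ± 14.2 TPM). Summed over the members, the level was 1166 ± 88.8 TPM in VEH, 2863 ± 183 TPM in SLO ½ and 1767 ± 167 TPM in SLO. CMPK2, a mitochondrial nucleotide kinase, had 0 counts in every library. RTP4, a receptor transporter, had 0 counts in the VEH libraries, 3, 6 and 3 counts in SLO ½ and 1, 0 and 0 counts in SLO, and neither gene was tested.

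Nearly the whole set was higher in SLO ½ than in VEH, and less so in SLO. In SLO ½ against VEH, 47 of the 48 tested members were higher at an adjusted p below 0.05 (edgeR's quasi-likelihood test, Benjamini-Hochberg over 14727 genes), where 26.7% of all tested genes were. All 47 had every SLO ½ library above every VEH library, as 30.0% of all genes did, and 33 rose more than 2-fold, as 6.37% of all genes did. The median log2 fold change was 1.53 over the members and 0.02 over all tested genes. The exception was RNF213, a giant ubiquitin ligase. RNF213 held 181, 216 and 173 CPM in VEH, 184, 173 and 158 CPM in SLO ½ and 163, 173 and 166 CPM in SLO. The groups overlapped, and its log2 fold change in SLO ½ was -0.14 (adjusted p = 0.0408), where 25.3% of all genes were lower.

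Fewer members passed at the full dose. In SLO against VEH, 36 members were higher, where 32.9% of all genes were, and 4 were lower (DTX3L, TRIM14, LAP3 and RNF213), where 32.1% were. Another 8 did not pass the test: TRIM25, GBP3, IFI35, PARP9, PARP12, PARP14, SP100 and XAF1. Every SLO library lay above every VEH library for 32 of the 36, as it did for 33.7% of all genes, and a rise of more than 2-fold was met by 19 members and by 9.61% of all genes. Of the 4 lower members only TRIM14 had every SLO library below every VEH library, as 33.0% of all genes did, and the groups of DTX3L, LAP3 and RNF213 overlapped. The median log2 fold change was 0.78 over the members and 0.01 over all genes. Of the members, 36 were higher at both doses, 11 were higher in SLO ½ alone by this threshold, and 0 in SLO alone. Of all genes, 26.7% were higher in SLO ½ and 32.9% in SLO. Shares of all genes higher at both doses or at 1 dose alone were not computed, so these member counts have no matching background. The test of SLO against SLO ½ is the test of the difference between the doses.

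Measured directly, 43 of the 48 members were lower in SLO than in SLO ½, where 20.3% of all genes were, and 42 of the 43 had every SLO library below every SLO ½ library, as 25.6% of all genes did. A level more than 2-fold lower in SLO than in SLO ½ was met by 18 members and by 1.08% of all genes. The 5 that did not pass the test were GBP1, GBP2, TRIM22, APOL1 and RNF213, and 0 members were higher by the test, where 20.8% of all genes were. For 43 of 48 members the level was therefore higher in SLO ½ than in VEH and lower in SLO than in SLO ½, a pattern met by 3.40% of all genes (500 of 14727). These comparisons share libraries, so the counts are not independent of each other.

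**Figure D2:**
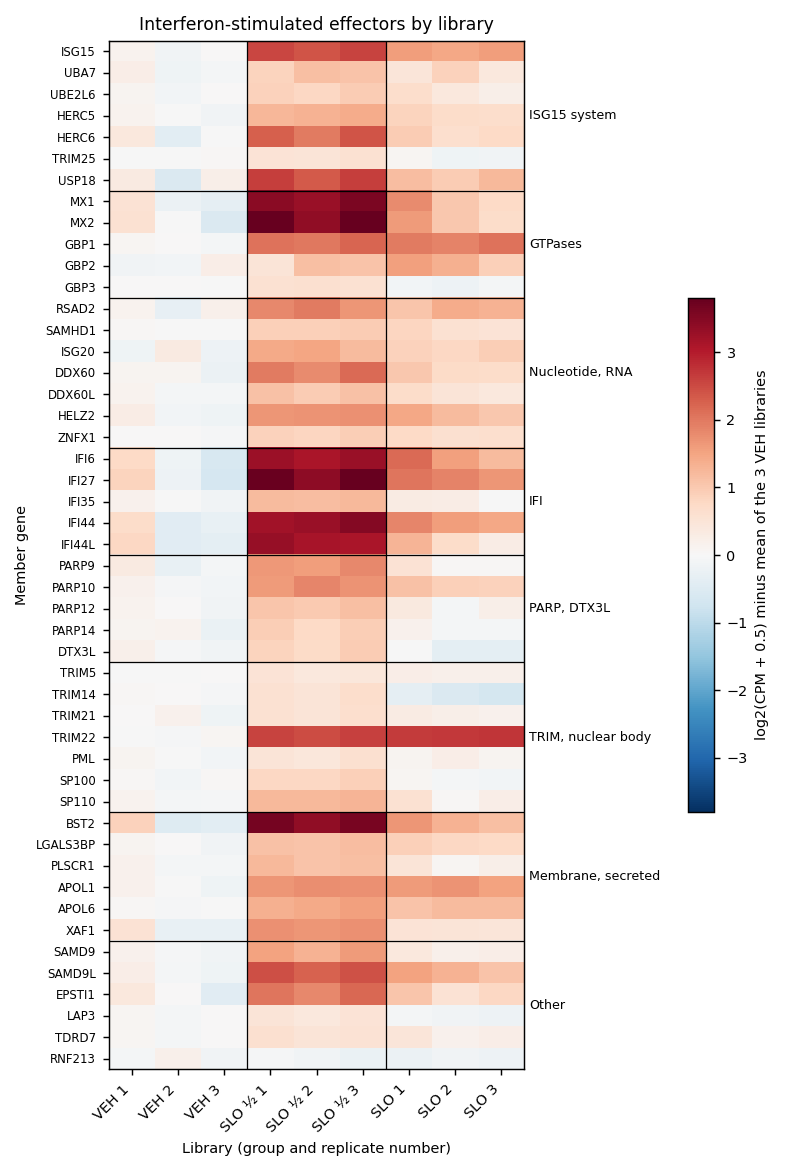
Level of the 48 tested members in the 9 libraries, grouped by role (rows), as log2(CPM + 0.5) minus the mean of the 3 VEH libraries (colour scale, red higher, blue lower). The SLO ½ columns are red for all but RNF213, the SLO columns paler for most, and VEH replicate 1 is redder than the other VEH libraries for the IFI genes, MX1, MX2 and BST2.

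**Figure D3:**
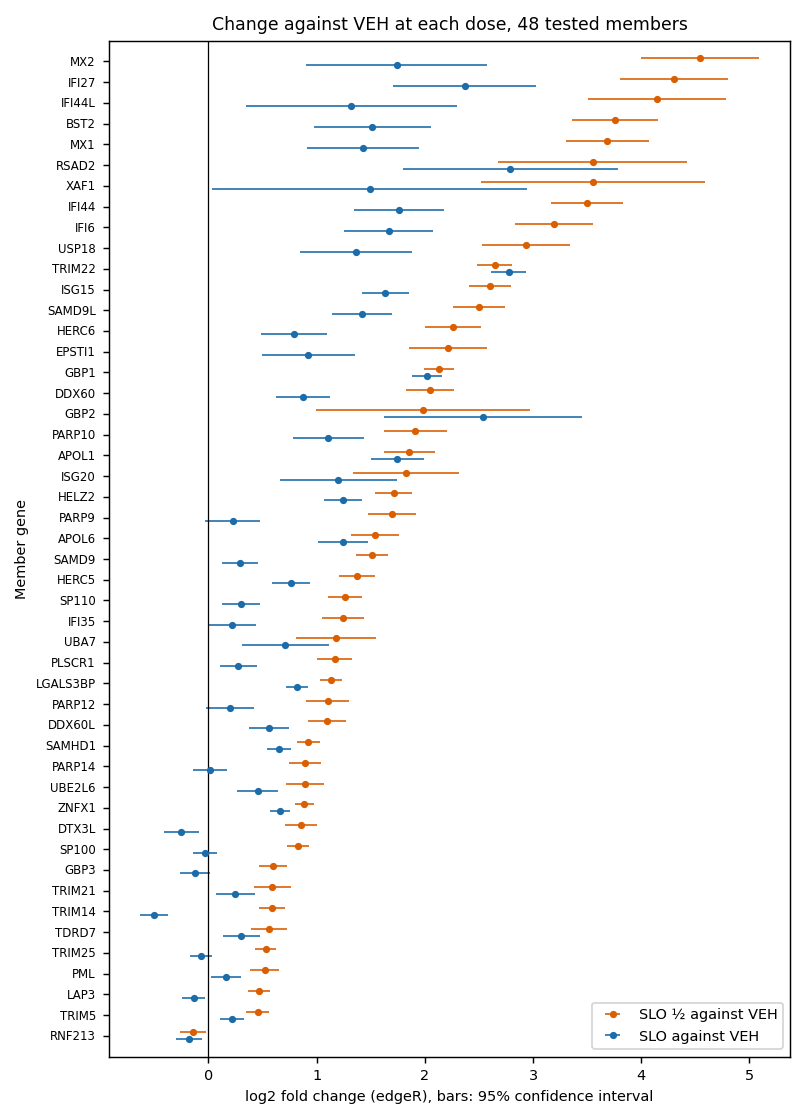
Log2 fold change of each tested member in SLO ½ against VEH (orange) and in SLO against VEH (blue), from edgeR, with 95% confidence intervals, ordered by the first. The orange points run from -0.14 (RNF213) to 4.54 (MX2), and the blue point lies left of the orange one for all but TRIM22 and GBP2, the intervals of both pairs overlapping.

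The libraries within a group were not level for this set. VEH replicate 1 was the highest VEH library for 38 of the 48 members, where it was for 36.2% of all genes. Its median ratio to the mean of the other 2 was 1.15 over the members and 1.00 over all genes. Likewise SLO replicate 1 was the highest SLO library for 36 members and for 37% of all genes, and SLO ½ replicate 2 the lowest of its group for 35 members and for 33.6% of all genes. Without VEH replicate 1, 47 members were higher in SLO ½ and 39 in SLO, with 2 lower in SLO. Of 15112 genes tested in that fit, 3674 were higher in SLO ½, 4752 higher in SLO and 4566 lower in SLO. PARP9, IFI35 and XAF1 came to pass the test as higher in SLO, and DTX3L and LAP3 no longer passed as lower. In SLO against VEH, leaving out SLO replicate 1 gave 32 higher and 5 lower members, where 4672 and 4517 of 15056 genes were. Without both libraries, a setting added after values were seen, 36 members were higher and 5 lower. Of 15024 genes tested in that setting, 4531 were higher and 4418 lower.

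In the ISG15 conjugation system all 7 members were higher in SLO ½, 6 of 7 in SLO, and all 7 lower in SLO than in SLO ½. Of all tested genes, 26.7%, 32.9% and 20.3% were. ISG15 (chr1:1001138-1014540), the ubiquitin-like modifier itself, held 5.52, 4.53 and 5.01 CPM in the VEH libraries, 31.3, 28.1 and 32.5 CPM in SLO ½ and 16.0, 14.8 and 16.1 CPM in SLO. The groups formed separate bands, with SLO between the others. Its log2 fold change was 2.60 in SLO ½ against VEH (SE 0.095, adjusted p = 4.55e-19), 1.63 in SLO against VEH (SE 0.11, adjusted p = 6.57e-14) and -0.97 in SLO against SLO ½ (SE 0.077, adjusted p = 3.88e-11). HERC6 (chr4:88378739-88443097), a HECT-type ligase next to the ISG15 ligase gene HERC5, held 8.51, 4.60 and 6.27 CPM in VEH, 32.1, 26.4 and 34.7 CPM in SLO ½ and 12.7, 10.1 and 10.9 CPM in SLO. SLO lay above VEH without overlap but far below SLO ½, with log2 fold changes of 2.26 in SLO ½ against VEH (SE 0.13) and -1.47 in SLO against SLO ½ (SE 0.11, adjusted p = 2.60e-11). The activating enzyme UBA7 and the conjugating enzyme UBE2L6 rose less, by 1.18 and 0.89 on the log2 scale in SLO ½, and the ligase HERC5 by 1.37. USP18, the protease that removes ISG15 and dampens the interferon receptor, rose 7.65-fold in SLO ½ and 2.58-fold in SLO. TRIM25, a ligase acting on the RNA sensor RIG-I, rose 1.44-fold in SLO ½, and its log2 difference between SLO and VEH was -0.07 (adjusted p = 0.254).

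Among the GTPases, all 5 were higher in SLO ½, 4 of 5 were higher in SLO and 3 of 5 were lower in SLO than in SLO ½. The matching shares of all tested genes were 26.7%, 32.9% and 20.3%. MX1 (chr21:41420020-41470071), a dynamin-like GTPase that traps viral ribonucleoproteins, held 3.11, 1.64 and 1.46 CPM in VEH, 26.2, 23.7 and 29.2 CPM in SLO ½ and 8.11, 4.53 and 3.72 CPM in SLO. The groups did not overlap, and replicate 1 was the highest library of SLO. The log2 fold change was 3.69 in SLO ½ against VEH (SE 0.19, adjusted p = 7.92e-16), 1.43 in SLO against VEH (SE 0.25) and -2.26 in SLO against SLO ½ (SE 0.15, adjusted p = 1.88e-12). MX2, its neighbour on chromosome 21, had 15, 7 and 3 counts in VEH, rose 23.3-fold in SLO ½ and was 6.98-fold lower in SLO than in SLO ½. Without VEH replicate 1 the log2 fold change of MX2 went from 4.54 to 5.30 in SLO ½ and from 1.74 to 2.50 in SLO. GBP1 (chr1:89051882-89065360), a guanylate-binding protein that coats intracellular bacteria, held 16.9, 16.5 and 15.2 CPM in VEH, 69.4, 67.1 and 76.2 CPM in SLO ½ and 65.9, 61.5 and 69.3 CPM in SLO. Its treated groups overlapped, and the log2 difference of SLO from SLO ½ was -0.11 (95% confidence interval -0.23 to -0.002, adjusted p = 0.0979), with rises over VEH of 2.13 and 2.02. GBP2 was scarce, with at most 25 counts in a library and log2 fold changes over VEH of 1.99 and 2.54 that became 2.58 and 3.13 without VEH replicate 3, and its log2 difference of SLO from SLO ½ was 0.55 (95% confidence interval -0.11 to 1.22). GBP3 rose by 0.60 on the log2 scale in SLO ½, and its log2 difference between SLO and VEH was -0.12 (adjusted p = 0.103).

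Among the enzymes of nucleotides and RNA, all 7 tested were higher at both doses and all 7 lower in SLO than in SLO ½. Of all tested genes, 26.7% were higher in SLO ½, 32.9% higher in SLO and 20.3% lower in SLO than in SLO ½. ZNFX1 (chr20:49237946-49278426), a helicase that senses RNA at mitochondria, held 204, 205 and 195 CPM in VEH, 373, 358 and 385 CPM in SLO ½ and 340, 306 and 311 CPM in SLO. The groups did not overlap, and the changes were modest but tight, 0.89 in SLO ½ (SE 0.044, adjusted p = 3.88e-16) and 0.66 in SLO (SE 0.044, adjusted p = 9.52e-14). HELZ2 (chr20:63558086-63574239), a helicase that acts as a nuclear receptor coactivator, held 42.7, 32.6 and 31.4 CPM in VEH, 115, 115 and 118 CPM in SLO ½ and 98.0, 81.1 and 72.8 CPM in SLO. SLO ½ was nearly level across its libraries while SLO spread more, and the log2 fold changes over VEH were 1.71 and 1.25. DDX60 (chr4:168216291-168318883), a helicase that promotes viral RNA decay, held 8.38, 8.34 and 6.53 CPM in VEH, 31.6, 27.8 and 36.1 CPM in SLO ½ and 16.2, 13.1 and 12.9 CPM in SLO. SLO lay between the other groups, with a log2 difference from SLO ½ of -1.17 (SE 0.097, adjusted p = 7.75e-11), where that of HELZ2 was -0.46 and that of ZNFX1 -0.22. SAMHD1, which hydrolyses deoxynucleotides, rose 1.90-fold in SLO ½ and 1.57-fold in SLO from an already high 58.3 TPM. RSAD2, or viperin, which makes a chain-terminating nucleotide, had 3, 0 and 4 counts in VEH, 30, 34 and 25 in SLO ½ and 13, 20 and 16 in SLO, so its fold change rests on few reads.

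The IFI genes were among the steepest responders: all 5 rose more than 2-fold in SLO ½, and all 5 were more than 2-fold lower in SLO than in SLO ½. Of all tested genes, 6.37% and 1.08% did so. IFI6 (chr1:27666064-27672212), a small membrane protein that blocks flavivirus replication sites, held 16.4, 8.47 and 6.06 CPM in VEH, 94.9, 85.9 and 97.5 CPM in SLO ½ and 44.1, 29.2 and 22.4 CPM in SLO. In both VEH and SLO replicate 1 was the highest library, yet the 3 groups did not overlap. The log2 fold change was 3.20 in SLO ½ against VEH (SE 0.18), 1.67 in SLO against VEH (SE 0.20) and -1.53 in SLO against SLO ½ (SE 0.15, adjusted p = 1.32e-09), and without VEH replicate 1 the first became 3.69. IFI44 (chr1:78649796-78664078), a cytoplasmic protein of the interferon response, held 3.94, 1.51 and 1.72 CPM in VEH, 24.5, 25.8 and 30.1 CPM in SLO ½ and 9.26, 7.71 and 7.05 CPM in SLO. Again the groups were separate, and VEH replicate 1 was over 2-fold above its companions. Its log2 fold change was 3.50 in SLO ½ (SE 0.16, adjusted p = 1.16e-16) and 1.76 in SLO (SE 0.20, adjusted p = 1.08e-08). IFI44L, adjacent to IFI44, had 15, 2 and 3 counts in VEH, and its VEH and SLO groups overlapped. It was 17.7-fold higher in SLO ½ and 7.09-fold lower in SLO than in SLO ½. Without VEH replicate 1 its log2 fold change in SLO ½ went from 4.15 to 5.56 and that in SLO from 1.32 to 2.73. Without that library the values of IFI27, a mitochondrial protein of the interferon response, likewise went from 4.30 to 5.37 in SLO ½ and from 2.37 to 3.43 in SLO. IFI35 rose 2.37-fold in SLO ½ and had a log2 difference of 0.22 in SLO (adjusted p = 0.0723), which became 0.30 (adjusted p = 0.0240) without VEH replicate 1.

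**Figure D4:**
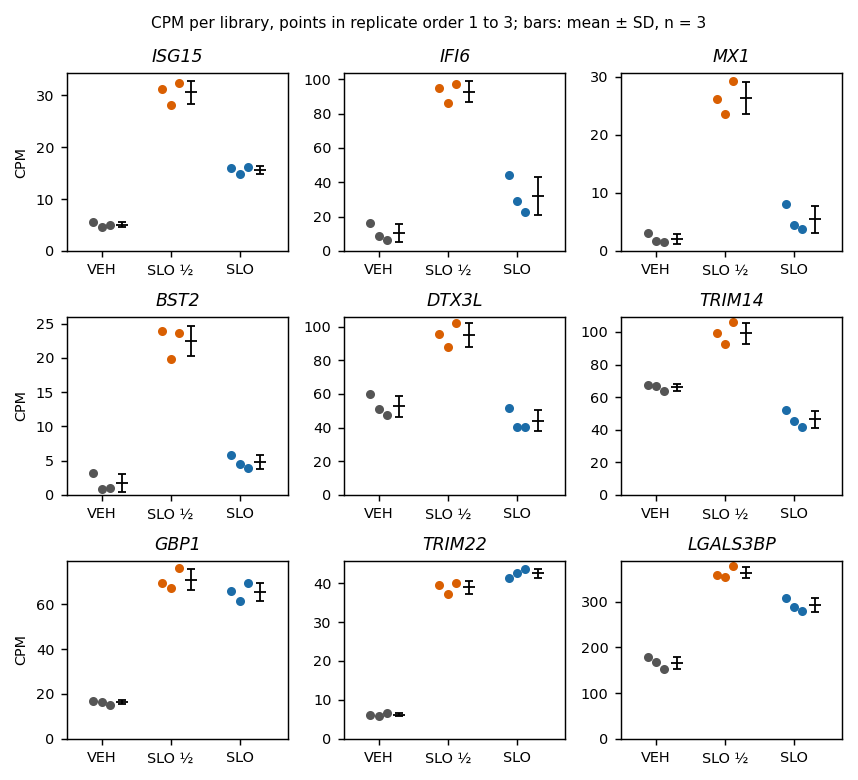
CPM (y axis, from 0) of 9 members in each library of VEH, SLO ½ and SLO, in replicate order 1 to 3, with the mean and SD (n = 3) at the right of each group. ISG15, IFI6, MX1 and BST2 peak in SLO ½. DTX3L and TRIM14 peak there too, with SLO below VEH for TRIM14 and reaching into the VEH range for DTX3L. GBP1 and TRIM22 sit near the same level at both doses, and LGALS3BP in SLO lies nearer SLO ½ than VEH.

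The ADP-ribosyltransferases and DTX3L differed between the doses in the same direction. All 5 were higher in SLO ½ and all 5 lower in SLO than in SLO ½, where 26.7% and 20.3% of all tested genes were. In SLO against VEH only PARP10 was higher (20%, against 32.9% of all genes) and DTX3L was lower (20%, against 32.1%). The other 3 did not pass the test. PARP9 (chr3:122527924-122564577), an inactive transferase that works as a complex with DTX3L, held 22.7, 14.6 and 16.9 CPM in VEH, 56.9, 54.1 and 64.3 CPM in SLO ½ and 26.3, 18.4 and 18.3 CPM in SLO. VEH and SLO overlapped, and the log2 fold change was 1.70 in SLO ½ (SE 0.11, adjusted p = 1.26e-13) and 0.23 in SLO (SE 0.12, adjusted p = 0.113), the latter 0.41 (adjusted p = 0.00408) without VEH replicate 1. DTX3L (chr3:122564338-122575203), the ubiquitin ligase of that complex, held 59.7, 50.8 and 47.7 CPM in VEH, 95.5, 88.0 and 102 CPM in SLO ½ and 51.5, 40.6 and 40.5 CPM in SLO. Its SLO libraries reached into the VEH range, and the log2 difference of SLO from VEH was -0.25 (SE 0.080, adjusted p = 0.00774), or -0.16 (adjusted p = 0.0847) without VEH replicate 1. The listed spans of PARP9 and DTX3L overlap by 240 bases on opposite strands, and the counts are stranded by the title of the file. PARP10, a mono-ADP-ribosyltransferase, held 2.86, 2.43 and 2.30 CPM in VEH, 8.74, 10.3 and 9.34 CPM in SLO ½ and 6.05, 5.18 and 5.05 CPM in SLO. SLO lay between the other groups, with log2 fold changes of 1.91 (SE 0.14) and 1.11 (SE 0.16, adjusted p = 5.41e-07). PARP14, a macrodomain transferase, rose 1.85-fold in SLO ½ and had a log2 difference of 0.02 in SLO (adjusted p = 0.853).

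Of the TRIM proteins and nuclear body components, all 7 were higher in SLO ½, and in SLO 5 were higher, 1 lower and 1 not called. Of all tested genes, 26.7% were higher in SLO ½, and in SLO 32.9% were higher and 32.1% lower. For 3 of the 5, every SLO library lay above every VEH library, as it did for 33.7% of all genes. In SLO against SLO ½, 6 of 7 were lower (85.7%, against 20.3% of all genes). TRIM22 (chr11:5689697-5737089), an antiviral ubiquitin ligase, held 6.03, 5.91 and 6.58 CPM in VEH, 39.5, 37.1 and 40.1 CPM in SLO ½ and 41.3, 42.5 and 43.8 CPM in SLO. Every SLO library lay just above every SLO ½ library, and the log2 difference was 0.13 (95% confidence interval 0.01 to 0.25, adjusted p = 0.0769), with rises over VEH of 2.65 (adjusted p = 1.78e-20) and 2.78 (adjusted p = 2.74e-22). TRIM22 lies within the listed span of TRIM5, which restricts retroviral capsids and rose only 1.37-fold in SLO ½ and 1.16-fold in SLO. TRIM14 (chr9:98069275-98119222), an adaptor of antiviral signalling at mitochondria, held 67.6, 66.9 and 63.5 CPM in VEH, 99.1, 92.8 and 106 CPM in SLO ½ and 52.2, 45.3 and 41.6 CPM in SLO. Its 3 groups did not overlap, and SLO was the lowest, with log2 fold changes of 0.59 in SLO ½ against VEH (SE 0.058, adjusted p = 1.42e-09), -0.51 in SLO against VEH (SE 0.064, adjusted p = 5.71e-08) and -1.10 in SLO against SLO ½ (SE 0.061, adjusted p = 2.84e-14). SP100 (chr2:230415942-230545606), a constituent of PML bodies that silences viral genomes, held 92.5, 82.7 and 91.7 CPM in VEH, 154, 152 and 168 CPM in SLO ½ and 93.6, 84.9 and 83.0 CPM in SLO. VEH and SLO were mixed, with a log2 difference of -0.03 (95% confidence interval -0.14 to 0.08). PML itself rose 1.43-fold in SLO ½ and 1.12-fold in SLO, the latter with overlapping groups.

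Of the membrane, secreted and cell death proteins, all 6 tested rose more than 2-fold in SLO ½, as 6.37% of all genes did. In SLO 5 of 6 were higher, where 32.9% of all genes were. Against SLO ½, 5 of 6 were lower in SLO, where 20.3% of all genes were. BST2 (chr19:17402939-17405630), or tetherin, which holds budding virions at the cell surface, held 3.17, 0.919 and 0.992 CPM in VEH, 24.0, 19.9 and 23.6 CPM in SLO ½ and 5.87, 4.47 and 3.86 CPM in SLO. VEH replicate 1 was the highest of its group and still below the lowest SLO library. The log2 fold change was 3.75 in SLO ½ against VEH (SE 0.19), 1.52 in SLO against VEH (SE 0.26, adjusted p = 1.14e-05) and -2.24 in SLO against SLO ½ (SE 0.16, adjusted p = 3.82e-12), and without VEH replicate 1 the values against VEH became 4.54 in SLO ½ and 2.29 in SLO. LGALS3BP (chr17:78971238-78979947) held 179, 168 and 152 CPM in VEH, 359, 355 and 378 CPM in SLO ½ and 309, 288 and 279 CPM in SLO. The groups were separate and SLO lay nearer SLO ½, with log2 fold changes of 1.13 (SE 0.049, adjusted p = 2.58e-17) and 0.82 (SE 0.049, adjusted p = 1.41e-14) over VEH. APOL1, an apolipoprotein of trypanosome resistance, rose 3.62-fold and 3.36-fold, and its log2 difference between the doses was -0.11 (95% confidence interval -0.30 to 0.08). PLSCR1, a phospholipid scramblase, rose 2.24-fold in SLO ½ and 1.21-fold in SLO, the latter with overlapping groups. XAF1, a partner of the apoptosis inhibitor XIAP, had 6, 0 and 0 counts in VEH, 27, 25 and 25 in SLO ½ and 6, 6 and 5 in SLO. Its log2 fold change in SLO ½ was 3.55, or 2.89 without VEH replicate 3, and without VEH replicate 1 no VEH count was left to set a fold. VEH replicate 1 matched the SLO libraries, and the log2 difference between SLO and VEH did not pass the test (adjusted p = 0.0671).

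In the remaining group of effectors, 5 of 6 were higher in SLO ½, where 26.7% of all genes were. In SLO 4 were higher (66.7%, against 32.9% of all genes) and 2 lower (33.3%, near the 32.1% of all genes). In SLO against SLO ½, 5 of 6 were lower (83.3%, against 20.3% of all genes). SAMD9L (chr7:93130056-93148385), which cleaves transfer RNA and restrains translation, held 5.40, 4.20 and 3.92 CPM in VEH, 26.8, 22.9 and 26.4 CPM in SLO ½ and 13.9, 11.9 and 10.0 CPM in SLO. Its neighbour SAMD9 (chr7:93099513-93118023), a restriction factor of poxviruses, held 38.2, 33.2 and 31.1 CPM in VEH, 100.2, 85.4 and 106 CPM in SLO ½ and 45.2, 38.9 and 41.0 CPM in SLO. Both sets of groups were separate, but SAMD9L had a rise of 1.42 on the log2 scale in SLO (SE 0.14, adjusted p = 2.43e-10) where SAMD9 had 0.29 (SE 0.079, adjusted p = 0.00198). In SLO ½ the log2 fold changes were 2.50 for SAMD9L and 1.51 for SAMD9, and the log2 differences of SLO from SLO ½ were -1.08 and -1.22. EPSTI1 rose 4.64-fold in SLO ½ and 1.90-fold in SLO. LAP3, a leucine aminopeptidase, rose 1.38-fold in SLO ½ and stood at a log2 difference of -0.14 in SLO (adjusted p = 0.0182), or -0.11 (adjusted p = 0.0795) without VEH replicate 1.

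The share of the SLO ½ rise that was also seen in SLO summarises these differences. It was computed from mean CPM as the rise of SLO over VEH in percent of the rise of SLO ½ over VEH, for the 47 members that rose. The VEH mean includes VEH replicate 1, the highest VEH library for 38 of the 48 tested members. Shares without that library and the spread of each share were not computed. The median was 26.2%, the middle 50% of members lay between 12.4% and 49.4%, and 36 of the 47 were below 50%. TRIM14 (-59.1%), LAP3 (-23.8%), DTX3L (-20.1%), GBP3 (-16.2%), TRIM25 (-10.0%) and SP100 (-2.50%) had a mean in SLO under that in VEH. At the other end stood GBP2 (159%), TRIM22 (111%), GBP1 (90.2%) and APOL1 (89.7%), the members other than RNF213 whose difference between the doses did not pass the test. Differences in this share between neighbouring paralogs were not tested. MX1 and MX2 kept 13.9% and 10.2%, IFI44 and IFI44L 23% and 8.6%, and PARP9 and PARP14 7.35% and 0.728%. HERC5 and HERC6 kept 43.8% and 19.3%, DDX60 and DDX60L 26.3% and 41.1%, and SAMD9L and SAMD9 35.7% and 12.0%. SP110 and SP100 kept 16.7% and -2.50%, and TRIM22 and TRIM5 111% and 43.8%. GBP1, GBP2 and GBP3 kept 90.2%, 159% and -16.2%. In all, 22 members lay within 200 kb of another member, in 14 pairs.

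**Figure D5:**
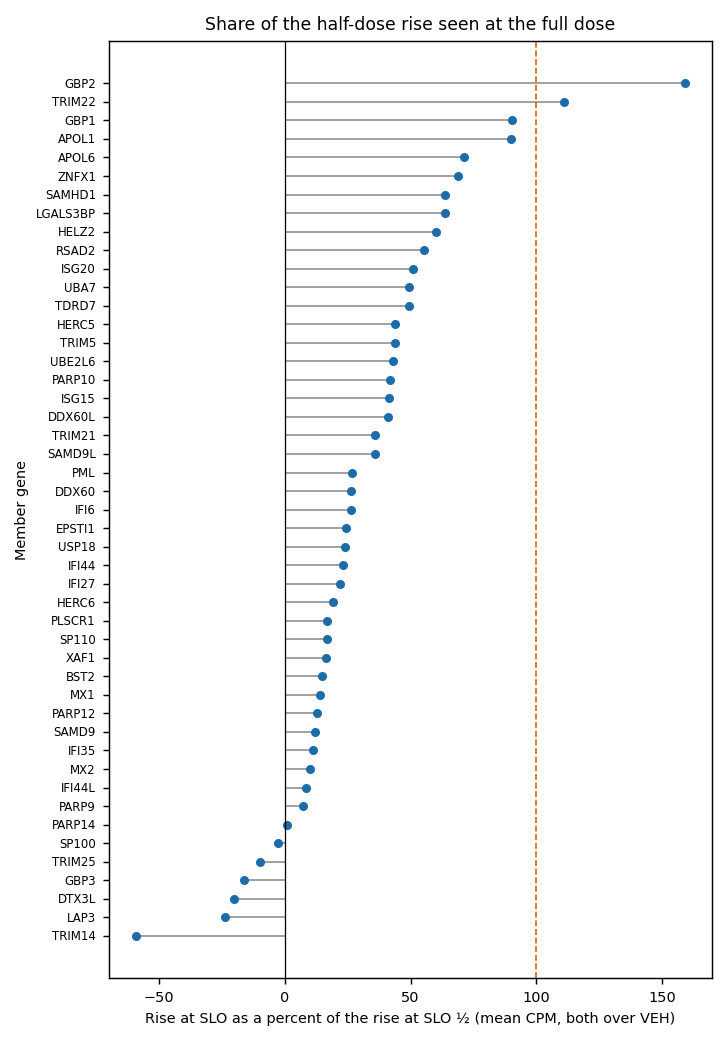
Rise of mean CPM in SLO over VEH as a percent of the rise in SLO ½ over VEH, for the 47 members that rose in SLO ½, in order. The dashed line at 100% marks an equal rise at both doses, and members left of 0 had a lower mean in SLO than in VEH; the points run from -59.1% (TRIM14) to 159% (GBP2, at most 25 counts in a library).

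The genes upstream of the effectors were counted in the same way, from lists of the pathway. Of 10 interferon ligand genes none passed the filter: IFNB1 had 0 counts in every VEH library, 6, 2 and 1 in SLO ½ and 1, 1 and 2 in SLO, and at most 12 counts were seen for any other (IFNE). Of 9 receptor and kinase genes, 2 were higher in SLO ½ (22.2%, below the 26.7% of all genes), 7 in SLO (77.8%, against 32.9%) and 6 in SLO over SLO ½ (66.7%, against 20.8%). IFNGR1, a chain of the interferon gamma receptor, held 28.8, 29.1 and 28.7 CPM in VEH, 45.4, 45.1 and 42.4 CPM in SLO ½ and 54.2, 49.97 and 54.0 CPM in SLO. It rose in steps with dose, by 0.62 and then a further 0.25 on the log2 scale (adjusted p = 0.00036). Of 8 tested STAT and IRF factors, 6 were higher in SLO ½ (75%, against 26.7% of all genes) and 5 in SLO (62.5%, against 32.9%), while in SLO against SLO ½ 4 were lower (50%, against 20.3%) and STAT3 was higher (log2 difference 0.23, adjusted p = 3.6e-05).

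Of 4 tested feedback genes, 2 were lower in SLO ½ and 0 higher, 3 were lower in SLO and 1 higher, and 2 were lower in SLO than in SLO ½ and 1 higher. Of all genes, 25.3%, 32.1% and 20.3% were lower in these comparisons, and 26.7%, 32.9% and 20.8% higher. The gene that was higher is SOCS1, an inhibitor of JAK kinases, with 7, 1 and 8 counts in VEH, 8, 7 and 12 in SLO ½ and 19, 19 and 11 in SLO (adjusted p = 0.00108 against VEH and 0.0420 against SLO ½). PIAS1, an inhibitor of STAT signalling, held 129, 124 and 125 CPM in VEH, 98.9, 101 and 98.0 CPM in SLO ½ and 90.0, 97.5 and 94.0 CPM in SLO, lower at both doses (log2 fold changes -0.35 and -0.43). Of 10 tested nucleic acid sensing genes, 9 were higher and 1 lower in SLO ½, 7 higher and 1 lower in SLO, and 1 higher and 4 lower in SLO than in SLO ½. The 4 that were lower at the full dose, as most effectors were, are RIGI (log2 difference -1.12), IFIH1 (-1.23), IFI16 (-0.68) and TLR3 (-0.57). STING1, the adaptor of cytosolic DNA sensing, held 13.8, 12.1 and 13.8 CPM in VEH, 34.1, 34.0 and 32.8 CPM in SLO ½ and 36.5, 39.1 and 40.3 CPM in SLO. It was the 1 higher in SLO than in SLO ½, by 0.20 on the log2 scale (SE 0.061, adjusted p = 0.0099). The OAS family (6 of 6) and the IFIT and IFITM families (7 of 7) were lower in SLO than in SLO ½, where 20.3% of all genes were. Among these family members were OAS3 (log2 difference -1.79) and IFIT3 (-0.88).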

How the data were processed

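RNA of HMC3 cells was measured in 9 libraries, 3 each of VEH, SLO ½ and SLO, grouped by the sample labels. Per the submitters' notes and methods, reads of KAPA poly-A libraries were trimmed with Trimmomatic 0.38 and aligned to GRCh38 with STAR 2.7.1a. The authors deposited raw counts of uniquely placed reads per gene from STAR, stranded by the file's title, so genes with near-identical copies are counted only by their distinct parts. The authors also deposited TPM values of the same genes, each library summing to a fixed total. How gene length was set and which annotation release was used are not given in the sources used here. Reads that named no gene stayed out of library sizes: 7.16% to 8.52% mapped to more than 1 place, 5.54% to 8.38% fell outside annotated features, 3.03% to 3.26% were ambiguous and 0.883% to 0.984% did not map.

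The count model was fitted with edgeR 4.0.16 under R 4.3.3 (filterByExpr, TMM factors 0.968 to 1.035, quasi-likelihood test, 1 coefficient per group over all 9 libraries, no covariate, Benjamini-Hochberg over the 14727 tested genes, called at adjusted p below 0.05). The edgeR fit was tested on simulated data with known changes. CPM are scaled by TMM, SE is the fold change divided by the root of F, and TPM served to compare genes. In each role group the members described by library are those with the smallest p, 2 in SLO ½ against VEH, 1 in SLO against VEH and 1 in SLO against SLO ½. Upstream genes were named by the smallest p per list in SLO ½ against VEH, plus IFNB1; 1 gene that this rule names is not reported here. Others named by value were picked after values were seen. Members and lists were chosen with earlier results of these data known. Alternatives were scaling by library size only, size factors of DESeq2, the whole DESeq2 1.42.0 test, no filter, a minimum of 10 counts in every library, the 2 compared groups alone, the replicate number as a block, limma 3.58.1 on log2(TPM + 1) or log2(TPM + 0.1), and each library left out in turn. Culture and sequencing batches are not given in the sources used here, so a batch that went with a group cannot be told apart from treatment.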

Additional observations from a re-analysis of the deposited data

How the results depend on the processing

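The counts of members higher in SLO ½ than in VEH (40 to 48 under the alternatives that keep all libraries, where 41 to 49 members were tested), higher in SLO than in VEH (28 to 39) and lower in SLO than in SLO ½ (36 to 44) kept their direction and stayed within 1.5 times of 47, 36 and 43. Of the 12946 to 32299 genes tested under these alternatives, 2732 to 4637, 4321 to 5624 and 1773 to 3150 were called in these directions. The small counts moved more. In SLO against VEH the lower members, 4 by edgeR, were 2 with DESeq2, 1 with library size only and 2 with limma on unfiltered log2(TPM + 1). In SLO ½ against VEH the lower member was RNF213, and there were 0 with DESeq2, library size only, at least 10 counts in every library, the 2 compared groups alone, limma on log2(TPM + 1) with or without the filter, and limma on log2(TPM + 0.1). In SLO against SLO ½, 1 member was higher with library size only (TRIM22, log2 0.15, adjusted p = 0.0347) and 0 otherwise. Limma on unfiltered log2(TPM + 1) called 1773 of all genes lower in SLO than in SLO ½, against 2996 by edgeR. Causes were not tested.

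With each library left out in turn, the members higher in SLO numbered 32 (without SLO replicate 1) to 39 (without VEH replicate 1), those lower in SLO 2 to 5, those higher in SLO ½ 47 in each case, those lower in SLO ½ 0 to 1, those lower in SLO than in SLO ½ 40 to 43, and those following both steps 40 to 43. Of 14939 to 15115 tested genes, 4572 to 4874 were higher in SLO, 4426 to 4730 lower in SLO and 3454 to 3984 higher in SLO ½. Genes lower in SLO ½ numbered 3391 to 3770, and those lower in SLO than in SLO ½ 2560 to 3113. Of 1140 recomputed values for 19 named members, 1124 kept their side of the threshold, 9 no longer passed and 7 newly passed. Of the values that passed in either fit, 0 reversed direction. A change of sign was not counted where neither fit passed. The values lost or gained concern DTX3L and PARP9 in SLO against VEH (DTX3L adjusted p 0.0574 to 0.154 where it was lost, PARP9 0.00408 to 0.0497 where it was gained) and single settings for TRIM22, MX1, HELZ2 and SAMD9.

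Same-numbered libraries deviated together weakly but in the same direction (correlations 0.003 to 0.087 over 9 pairs, own number best in 11 of 18). Differently numbered pairs ran from -0.062 to 0.037, so the ranges overlapped. Deviations from a group mean sum to 0, so these values are not independent of each other. The study's methods name no pairing, and numbers were not taken as pairs in the main fit. These correlations are over all tested genes and cannot decide whether numbers are paired within this set. With the replicate number as a block, SLO against VEH gave 37 higher members and 4 lower, SLO ½ against VEH 47 and 1, and the doses against each other 0 and 43, and PARP9 passed (0.23, adjusted p = 0.0497). Of all 14727 genes tested, that fit called 4877 higher and 4745 lower, 3987 and 3762, and 3114 and 3048, in the same order. Depth limits the members with few reads, among them GBP2, RSAD2, XAF1, RTP4 and CMPK2. It also limits the fold changes over VEH of members with few VEH counts. These include MX2 (15, 7 and 3), IFI44L (15, 2 and 3), IFI27 (23, 7 and 4), USP18 (22, 8 and 24) and ISG20 (11, 18 and 13). With at least 10 counts required in every library, 41 members were tested.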
